A study of Mus musculus with 2 samples.

Results

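Transcripts of autophagy and lysosome genes were examined in mouse liver after injury of the kidneys. A list of 39 genes was taken, covering the autophagy machinery, the autophagy receptors, the transcription factors Tfeb and Tfe3, and proteins of the lysosomal membrane and lumen. A probe set was a member when the annotation of the array platform gave it exactly 1 gene and that gene was on the list, which gave 91 probe sets of 45037 that were not controls. They named 37 of the 39 genes. No probe set with 1 gene name was found for the receptors Optn and Bnip3l, so neither is analysed here. The median signal of each array over probe sets that were not controls was 257.0 and 254.1, and 68 of the 91 probe sets, for 35 genes, were at or above it on at least 1 array.

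All mice were male wild-type C57BL/6 animals, 8 weeks old. The IRI pool came from mice whose kidneys on both sides were made ischemic at body warmth for 30 minutes and then reperfused, which the labels also call acute kidney injury, and the sham pool came from mice with a sham operation. Livers were frozen 24 hours after surgery, and liver of 3 mice, 100 mg as the labels give it, was combined per group. Each pool was hybridised to 1 Affymetrix array. There were therefore 2 samples and no replicates: the spread between mice is unknown, no test or p-value can be given, and each difference describes these pools only. In whole liver, fewer cells of a type and less RNA per cell cannot be told apart.

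Autophagy encloses cytoplasm, organelles or aggregates in a double membrane, the autophagosome, and delivers them to the lysosome, where acid hydrolases break them down. In hepatocytes it supplies amino acids and fatty acids during fasting and removes damaged mitochondria, lipid droplets and protein aggregates. It is controlled largely by phosphorylation and by turnover of its proteins, so transcript signals do not measure how much autophagy takes place.

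Most of these genes differed little between the pools, and 4 stood past 2-fold. The protease gene Ctsl was 3.54-fold higher in the IRI pool. Gabarapl1, for an ATG8 protein of the autophagosome membrane, was 4.07-fold lower, Npc1, for the cholesterol exporter of the lysosome, 2.98-fold lower, and Ulk2, for a kinase that starts autophagy, 2.57-fold lower. All differences are of log2(signal + 16), IRI minus sham, with each gene read by its brightest probe set. The counts of 1 gene higher (2.86% of 35) and 3 lower (8.57%) stood beside 8.71% (higher) and 9.59% (lower) of the 13117 genes measured in the same comparison. The share of members was thus below this background on the higher side and near it on the lower side. This background includes genes dim in 1 pool, whereas all 35 members were read by probe sets bright in both pools. With dim signals left out, 5.14% (higher) and 6.17% (lower) of 10950 genes passed 2-fold. Beside these, the share of members was below on the higher side and above on the lower side, where it rests on 3 genes. A further 3 members were higher and 3 lower by at least 1.5-fold, giving 4 (Ctsl, Ctsc, Atg12 and Sqstm1) and 6 (Gabarapl1, Npc1, Ulk2, Wipi2, Bnip3 and Hexa), where 18.7% and 19.3% of all genes passed that threshold. At 3-fold, 1 member was higher (Ctsl) and 1 lower (Gabarapl1), beside 3.6% and 4.49% of all genes. Within 0.5 of no difference on the log2 scale lay 22 of the 35 (62.9%), against 55.8% of all genes. The median log2 difference of the members was -0.10, with 13 above 0 and 22 below, and that of all genes was -0.01, with 49.3% above 0.

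**Figure D1:**
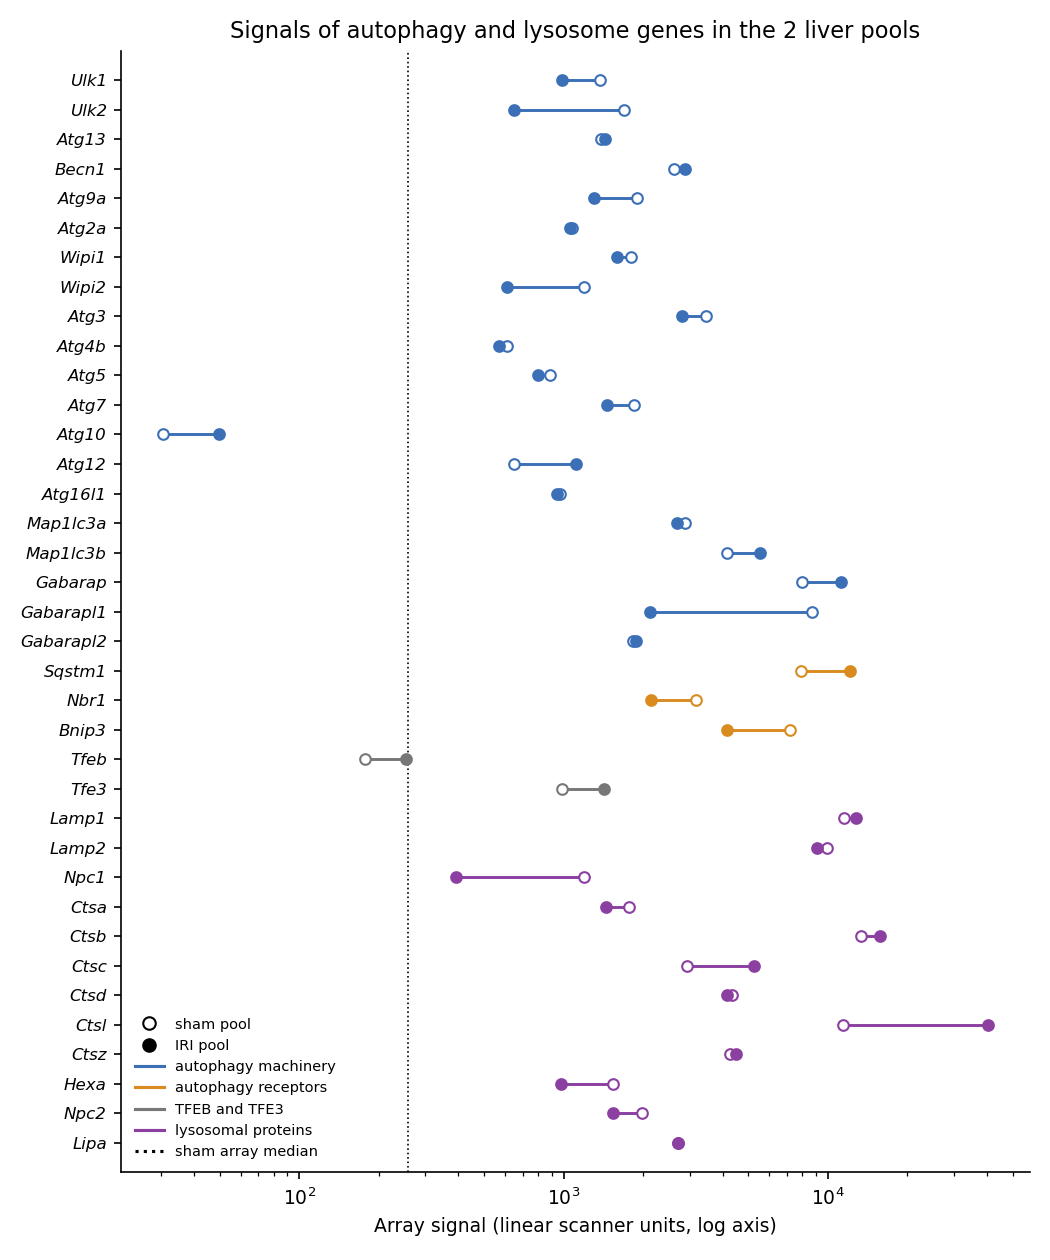
Array signal of each gene in the sham pool (open circles) and the IRI pool (filled circles) on a log axis, by the probe set that represents it, with 1 array per pool and no error bars. Gabarapl1, Npc1 and Ulk2 have the longest lines to the left and Ctsl the longest to the right, while Atg10 and Tfeb lie under the array median (257.0 for sham, dotted).

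The arrays give an internal measure of error where several probe sets read 1 gene. Among the 19 members with at least 2 probe sets past the filter, the log2 differences within a gene had an SD of 0.65, against 0.72 over all genes. All probe sets had 1 sign in 10 of these 19 genes (52.6%), and in 55.3% of all such genes. Small differences are therefore within the disagreement of probe sets. On the level of probe sets, 6 of 68 (8.82%) passed 2-fold upward and 6 downward, beside 10.4% and 10.8% of all 21003 named probe sets.

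**Figure D2:**
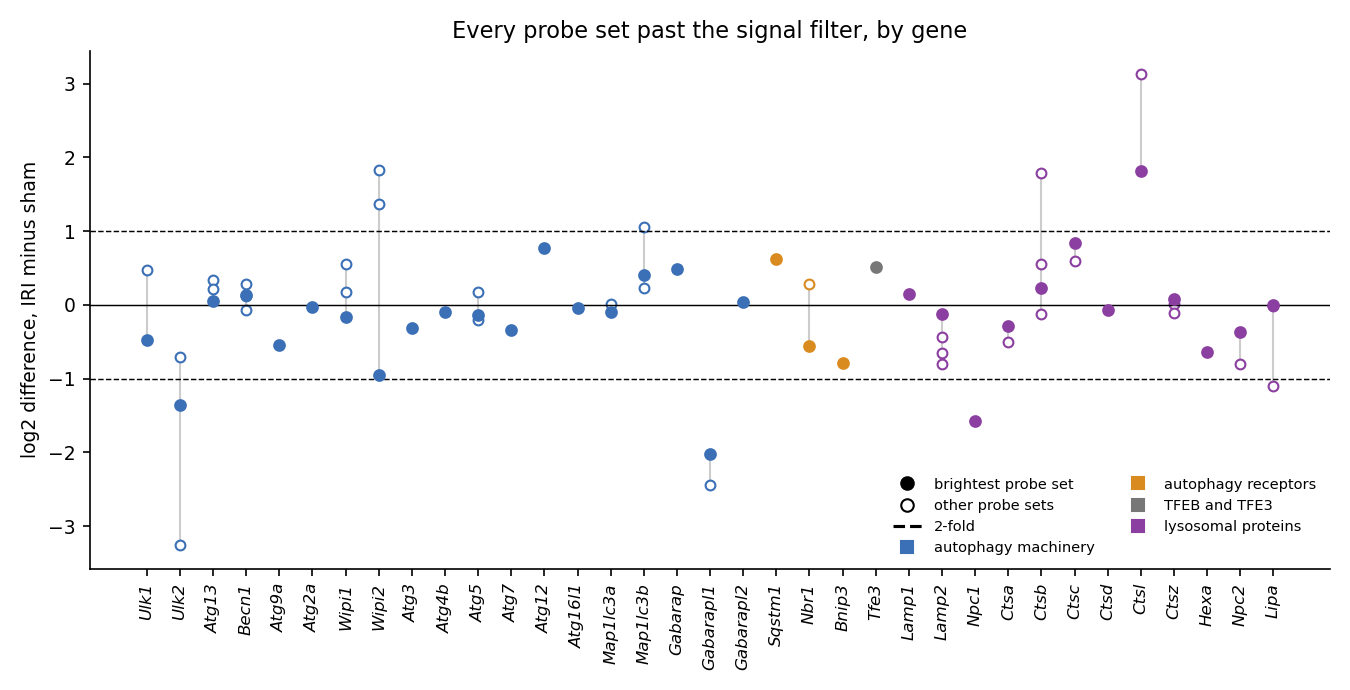
The log2 difference, IRI minus sham, of each probe set past the signal filter, with the brightest of a gene filled, the others open and dashed lines at 2-fold. Both probe sets of Gabarapl1 lie below the lower line and both of Ctsl above the upper line, whereas those of Wipi2 lie on both sides of 0, the higher ones drawn from a sham signal under the array median and so known only as bounds.

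The first group of the machinery starts autophagy and supplies membrane. Ulk2 was read at 1690.3 in sham liver and 646.9 in IRI liver (log2 difference -1.36). Its other probe sets past the filter read 1102.2 and 666.3 (-0.71), and 1447.9 and 137.2. The last value lies under the array median, so that probe set gives only a bound of at least 5.42-fold lower. The direction was the same in all 3, but the size was not.

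Ulk1, the closest relative of Ulk2, showed no such agreement. Its brighter probe set went from 1372 to 985.4 (-0.47) and the other from 687.9 to 965.7 (0.48). Atg13, the adaptor of both kinases, had 3 probe sets between 0.05 and 0.34, and Becn1, a subunit of the lipid kinase complex that marks the site of membrane growth, had 4 between -0.06 and 0.28. Atg9a, whose protein brings membrane in vesicles, was lower by -0.54 (1897.3 and 1302.4), and the lipid transfer gene Atg2a differed by -0.03.

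The WIPI proteins bind the lipid that this kinase complex makes. The brightest probe set of Wipi2 went from 1197.8 to 611.5 (-0.95), just inside the 2-fold line. The other 2 went the opposite way, from 125 to 348.3 and from 96.3 to 383.1, both dim in sham, which bounds them at 1.33-fold and 1.46-fold higher or more. No direction can be given for Wipi2. Wipi1 stood at -0.17 in the brightest reading and at 0.17 and 0.55 in the others. Over these 8 genes the median was -0.32, with 6 below 0.

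The conjugation enzymes attach ATG8 proteins to lipid. All but Atg12 of the 6 that passed the filter lay between -0.34 and -0.04: Atg7, the enzyme that activates the ubiquitin-like proteins (1840.3 and 1454), Atg3, which transfers ATG8 to lipid (3462.7 and 2795.5), the trimming protease Atg4b (612.8 and 570.4), Atg5 (887.3 and 802.1, with 1 of its 3 probe sets higher) and Atg16l1 (970 and 942.9). Atg12, the ubiquitin-like partner of Atg5, went from 647.7 to 1118 (0.77, 1.71-fold higher), by the 1 probe set of 3 that passed. Atg10, which joins Atg12 to Atg5, was read at 30.4 and 49.7, under the median on both arrays, so no fold is given. None of the 6 reached 2-fold.

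The ATG8 proteins coat the autophagosome and hold its cargo receptors, and this family split. Gabarapl1 was read at 8673.8 in sham liver and 2119.3 in IRI liver (-2.02) by a probe set that can match related transcripts. Its other probe set, without that limit, went from 4839.6 to 879.9 (-2.44). Of all genes measured, 2.41% had a lower difference. Gabarapl1 is the member with the largest difference, and both readings put it at least 4-fold lower.

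The other 4 ATG8 genes did not share this. Gabarap went from 8009.1 to 11213.2 (0.48) and Gabarapl2 from 1827.7 to 1885.9 (0.04). Map1lc3b, which encodes LC3B, the usual marker protein of autophagosomes, had 3 probe sets that were all higher, at 0.22, 0.41 and 1.06, the brightest of them reading 4168.2 and 5542.6. Map1lc3a differed by -0.10 and 0.01 in its 2 probe sets. Gabarapl2 was lower instead (-0.24) when the hybridisation controls set the scale. Of the 19 machinery genes that passed, 2 passed 2-fold on the lower side and none on the higher, and the median was -0.10.

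Autophagy receptors carry cargo to the ATG8 proteins. Sqstm1 encodes p62, which binds ubiquitinated cargo and is itself degraded by autophagy, and its signal went from 7925.2 to 12159.9 (0.62, 1.53-fold higher). Nbr1, a related ubiquitin receptor, was lower by its brighter probe set (3161.9 and 2142, -0.56) and higher by the other (882 and 1079.7, 0.29). Bnip3, a receptor on the outer mitochondrial membrane, went from 7209.9 to 4161.8 (-0.79, 1.73-fold lower). None of the 3 measured receptors reached 2-fold, and their median of -0.56 is the value of Nbr1, whose probe sets disagreed.

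Tfeb and Tfe3 encode related transcription factors that move into the nucleus when the kinase mTORC1 is inactive and switch on lysosomal and autophagy genes. Tfe3 went from 989 to 1418.5 (0.51). Tfeb was read at 177.2 and 254.0, under the median of both arrays but only just under that of the IRI pool (254.1), so it narrowly missed the filter and no fold is given. Where these factors act is set by their phosphorylation, which an array does not show.

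Both factors bind the E-box CACGTG, a palindrome that reads the same on either strand, within longer palindromes that contain it, such as TCACGTGA and the one with a further G before and C after that. RefSeq promoter windows of GRCm38.p6, from 250 bases before to 50 after the annotated start, were held for 32 of the 39 genes, and no window was held for Becn1, Atg12, Atg16l1, Map1lc3a, Npc1, Ctsb and Bnip3l. CACGTG was found for 8 of the 32 (25%), namely Lamp1, Ctsa, Ctsd, Ctsl, Atg3, Atg5, Atg7 and Bnip3, and for 8.09% of all 27025 genes with a window. Among genes that passed the signal filter the share was 10.8%. TCACGTGA stood in 3 (Ctsa, Ctsd and Atg3, or 9.38%, against 1.12% of all genes) and the longest palindrome in none, against 0.37%. Among genes past the filter those 2 shares were 1.81% and 0.67%. The other genes of the pathway, listed further below, had windows for 124. Of these, 23.4% held CACGTG, 9.68% TCACGTGA and 3.23% the longest palindrome. A match is a string of letters and not a shown binding site, and the window of Ctsl may not be a promoter, as described below.

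The 250 bases before the start are printed 5′ to 3′ for the genes that carry this comparison, with E-boxes in capitals. Lamp1 has the most matches, 4 within 61 bases of the start (chr8:13158911-13159160 on the plus strand). Ctsa (chr2:164833523-164833772 on the plus strand), Ctsd (chr7:142387828-142388077 on the minus strand) and Atg3 (chr16:45158579-45158828 on the plus strand) have the TCACGTGA form, and Ctsa has a second copy after the start that is not printed. Ctsl (chr13:64370521-64370770 on the minus strand) is the member with the largest difference on the higher side. Its printed bases end in a run of t and c followed by ag, as introns do. The annotated start used for Ctsl may therefore be that of an internal exon, and its window may not be a promoter. Gabarapl1 (chr6:129532942-129533191 on the plus strand) and Ulk2 (chr11:61855093-61855342 on the minus strand) are members at least 2-fold lower. The E-box is not in their windows, nor in those of most members, being absent from 24 of the 32. Ctsl, Gabarapl1 and Ulk2 are printed for their differences, so they do not show how E-boxes and differences go together.
Lamp1: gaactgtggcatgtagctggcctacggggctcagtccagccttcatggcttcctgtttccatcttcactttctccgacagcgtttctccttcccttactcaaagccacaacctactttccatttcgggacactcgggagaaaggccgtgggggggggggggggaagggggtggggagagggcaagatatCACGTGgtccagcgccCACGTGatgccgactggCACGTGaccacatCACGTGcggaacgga
Ctsa: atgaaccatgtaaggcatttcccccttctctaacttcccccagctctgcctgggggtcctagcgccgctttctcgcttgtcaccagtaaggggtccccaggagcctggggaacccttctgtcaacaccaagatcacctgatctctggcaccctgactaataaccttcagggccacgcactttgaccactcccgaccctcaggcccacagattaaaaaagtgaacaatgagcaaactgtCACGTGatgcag
Ctsd: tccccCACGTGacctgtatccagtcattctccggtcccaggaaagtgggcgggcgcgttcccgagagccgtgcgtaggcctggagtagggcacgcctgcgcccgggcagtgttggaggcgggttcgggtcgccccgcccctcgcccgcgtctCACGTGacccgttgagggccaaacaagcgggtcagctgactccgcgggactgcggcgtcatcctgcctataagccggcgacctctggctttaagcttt
Atg3: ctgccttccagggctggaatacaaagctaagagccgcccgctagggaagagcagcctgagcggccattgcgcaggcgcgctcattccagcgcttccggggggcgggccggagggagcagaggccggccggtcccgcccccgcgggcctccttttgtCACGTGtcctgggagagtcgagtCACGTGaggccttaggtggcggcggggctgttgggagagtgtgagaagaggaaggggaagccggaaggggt
Ctsl: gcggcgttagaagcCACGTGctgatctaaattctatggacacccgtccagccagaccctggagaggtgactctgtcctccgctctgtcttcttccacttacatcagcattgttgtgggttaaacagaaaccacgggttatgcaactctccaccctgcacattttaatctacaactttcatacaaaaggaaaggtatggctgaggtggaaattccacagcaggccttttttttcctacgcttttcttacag
Gabarapl1: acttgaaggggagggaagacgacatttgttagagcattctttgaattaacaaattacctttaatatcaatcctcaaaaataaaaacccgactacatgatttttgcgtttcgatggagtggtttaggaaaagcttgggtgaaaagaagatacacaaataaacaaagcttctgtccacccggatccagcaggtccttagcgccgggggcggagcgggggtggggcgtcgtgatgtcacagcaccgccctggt
Ulk2: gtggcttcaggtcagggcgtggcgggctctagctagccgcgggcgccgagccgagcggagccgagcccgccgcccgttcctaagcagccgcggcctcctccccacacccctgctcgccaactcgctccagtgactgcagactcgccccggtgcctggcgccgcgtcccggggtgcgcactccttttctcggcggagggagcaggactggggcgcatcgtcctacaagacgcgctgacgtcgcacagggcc

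The signals were then set beside these letters. The 8 genes with an E-box had a median log2 difference of -0.21, from -0.79 (Bnip3) to 1.82 (Ctsl, whose window may not be a promoter). The 21 measured genes with a window but no E-box had a median of -0.10. Over all genes, the medians were -0.01 for 1140 genes with an E-box and -0.02 for 9422 without. Lamp1, with its 4 matches, differed by 0.15, Ctsd by -0.07, Ctsa by -0.29 and Atg3 by -0.31.

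Lysosomal membrane genes were led by Npc1, which was lower. Npc1 moves cholesterol out of the lysosome, and its only probe set went from 1197.8 to 391.2 (-1.58), so no second reading exists. Of all genes, 4.54% had a lower difference. Npc2, the luminal protein that hands cholesterol to Npc1, was also lower, at -0.36 (1977.7 and 1533.1) and -0.80 (1858.5 and 1059.6) in its 2 probe sets past the filter. Lipa, the acid lipase that frees the cholesterol, stood at -0.01 in both of 2 probe sets and at -1.11 in the third (2467.9 and 1138.3). The 3 steps from lipase to export thus showed differences of unequal size.

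Lamp1 and Lamp2 encode the main glycoproteins of the lysosomal membrane. Lamp1 had signals of 11506.2 and 12771.5 (0.15). All 4 probe sets of Lamp2 were lower, from -0.80 to -0.12, the brightest being the one with the smallest difference (9934.6 and 9121.5). Neither gene reached 2-fold by any probe set.

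The cathepsins are the main lysosomal proteases, and only Ctsl among the 6 measured was at least 2-fold higher. Ctsl encodes a cysteine endopeptidase, and its signal went from 11451.7 (sham) to 40544.8 (IRI), a log2 difference of 1.82. The other probe set went from 87.9, under the array median, to 891.9, at least 3.33-fold higher. Of all genes measured, 2.60% had a higher difference. It is among the bright probe sets, the highest signals being 55427 (sham) and 85966 (IRI), and quantile normalization made the difference 1.5.

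Ctsc, a dipeptidyl peptidase that activates the serine proteases of leukocyte granules, went from 2929.1 to 5266.4 (0.84, 1.79-fold higher). Its second probe set was dim, at 176.1 in sham, under the array median, and 275.1 in IRI, which bounds it only at 1.07-fold higher or more. Ctsb, a cysteine protease, went from 13383.2 to 15693.8 by its brightest probe set (0.23) and from 13447.4 to 12309.8 by the next (-0.13). Its dimmer probe sets read 0.55 and 1.79, so the 4 disagreed in size and sign. Ctsd, the aspartic protease, went from 4350.6 to 4156.2 (-0.07), and Ctsz, a carboxypeptidase, from 4250 to 4481.9 (0.08). The serine carboxypeptidase Ctsa was lower by -0.29 and -0.50.

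Hexa, a subunit of the hexosaminidase that degrades gangliosides, went from 1534.6 to 975.7 (-0.64). Over the 12 lysosomal genes the median was -0.04, with 1 gene past 2-fold on each side. The medians of machinery (-0.10), the 3 receptors (-0.56) and lysosomal genes (-0.04) are given side by side, and the difference between them was not tested.

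**Figure D3:**
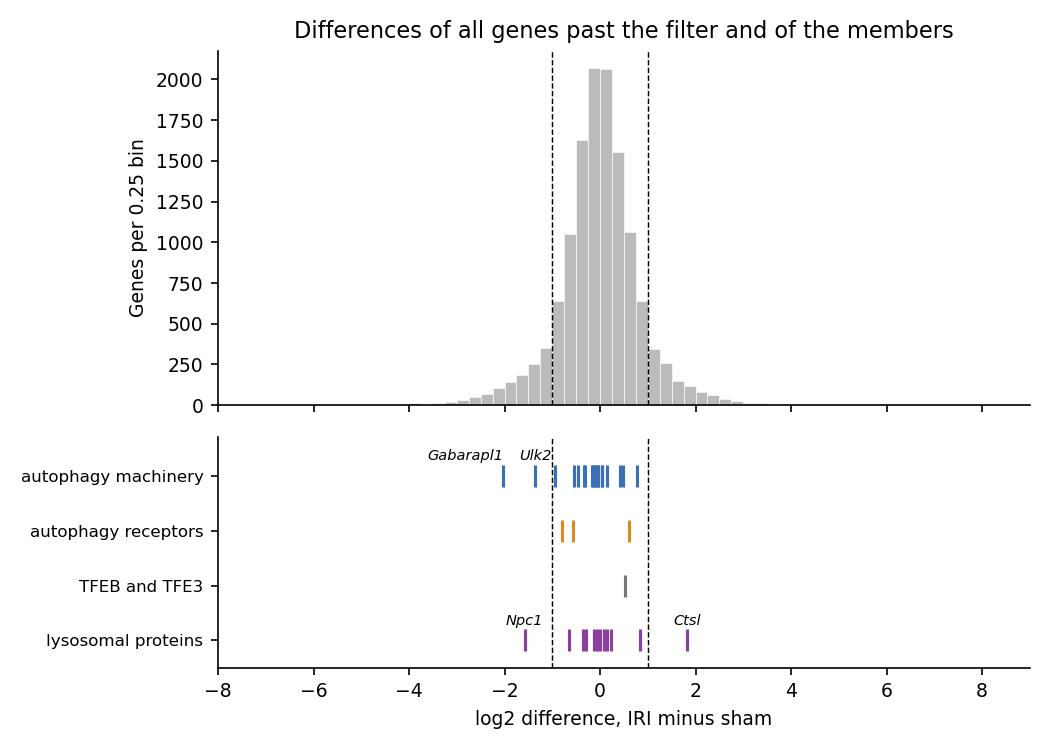
Histogram of the log2 difference of 13117 genes past the filter in bins of 0.25 (upper panel) and the value of each member by group (lower panel, 1 tick per gene), with dashed lines at 2-fold. Most members lie in the centre of the histogram, and Gabarapl1, Ulk2, Npc1 and Ctsl lie past the lines.

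Macrophages are rich in lysosomes, so their markers were read beside these values. Of 12 Kupffer cell and macrophage markers, all measured and none at 0, 2 were at least 2-fold lower and none higher. Their signals summed to 14579 (sham) and 10381 (IRI), and the median difference was -0.31. They ran from C1qa, at least 3.61-fold lower, and Cd5l (-1.57) to Marco (0.18, and 2.58 by its other probe set) and Cd68 (0.47). C1qb had probe sets of both signs. The 3 measured genes of the monocyte list were higher, F13a1 by 0.55, Fn1 by 0.72 and Plac8 by 0.97, and Ccr2 and Chil3 were under both medians. Fn1 was far brighter (18092.2 and 29902) than F13a1 (325.8 and 485.3) and Plac8 (816.1 and 1615.1), so it cannot be taken as a reading of monocytes. Neutrophil markers summed to 5751 and 7890 over 10 genes, and the 9 measured had a median of 0.22. Of these 9, S100a8 was higher by at least 5.21-fold and S100a9 by at least 2.95-fold. Cxcr2 was at least 1.14-fold lower, Elane stood at -0.44, and Mpo, Csf3r, Mmp8, Mmp9 and Ngp lay between 0.07 and 0.37. Camp was under the median on both arrays. Hepatocyte markers, 8 of 9 with a probe set, summed to 314644 and 453686, with a median of 0.45, and none was under the array median. They ran from Cyp2e1 (-0.06) to Fgb (1.27), and Fgb alone went from 35738 to 85966, a large part of the rise in the sum. Of the 8 measured pancreatic acinar markers, 7 were at least 2-fold higher in the IRI pool (summed signal 3549 and 11772). The 3 measured cholangiocyte markers were also higher, Epcam by at least 4.38-fold, Krt19 by at least 1.93-fold and Sox9 by 1.16 on the log2 scale, and Krt7 and Cldn7 were under both medians (summed signal of 5 genes 761.5 and 2517). The 7 sinusoidal endothelial markers split, from Clec4g (-1.05) to Lyve1 (3.01), with a median of -0.30 and summed signals of 8084 and 8452. What part these cells have in the differences of Ctsl, Ctsc or any other member was not tested.

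Other lists drew on the rest of the pathway, and 136 of their 149 genes passed the filter. By the signals as measured, 7 passed 2-fold upward (5.15%) and 13 downward (9.56%), beside 8.71% and 9.59% of all genes. These counts include genes dim in 1 pool, some with a bound under 2-fold. The median was -0.24, with 51 above 0 and 85 below.

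**Figure D4:**
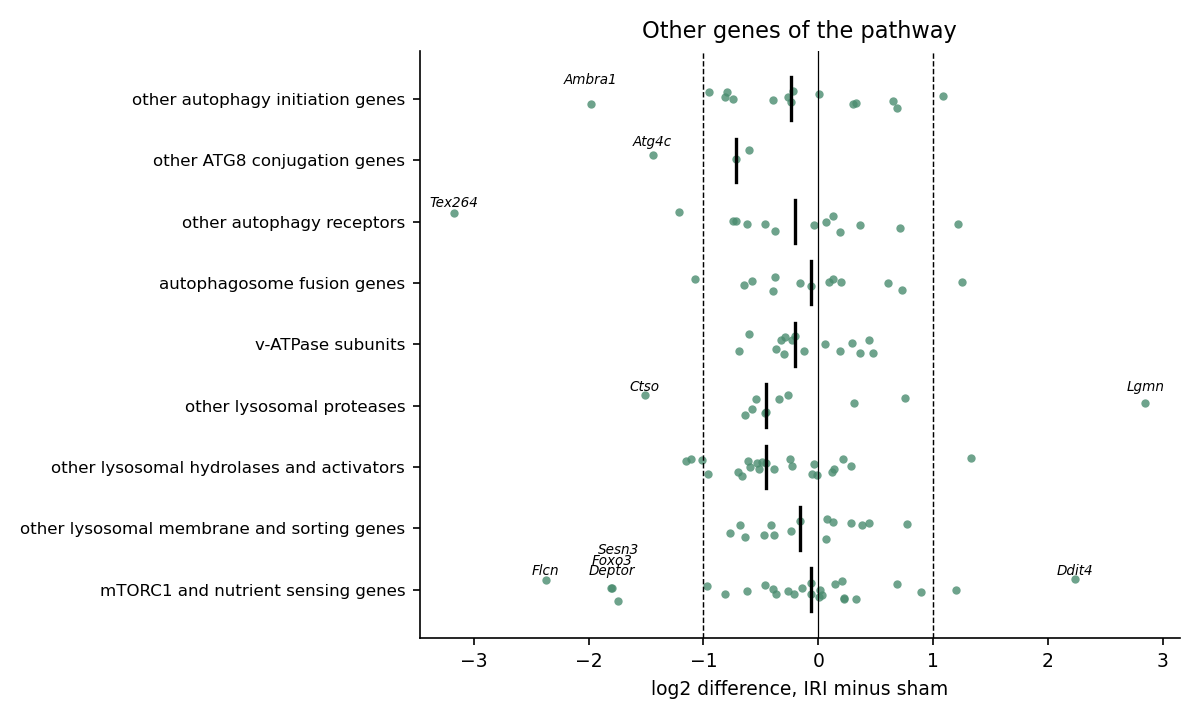
The log2 difference, IRI minus sham, of each other gene of the pathway that passed the filter, by list. Each gene is read by its brightest probe set, with the list median as a black bar and dashed lines at 2-fold. The v-ATPase subunits lie between -0.69 and 0.47, while Lgmn, Ddit4, Flcn and Tex264 lie far from their lists, the last 3 with a signal under the array median in 1 pool.

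Among 15 other genes of initiation, Wdr45b, a relative of the WIPI proteins, was 2.12-fold higher (1891.6 and 4026.7) and Nrbf2 stood at 0.65. Atg14 (-0.95) and Uvrag (-0.75), which define separate lipid kinase complexes, were the lowest of those measured on both arrays. Ambra1 was at least 1.64-fold lower and Pik3r4 at least 1.18-fold higher, with 1 signal under the median each. The 3 other conjugation genes measured were lower, Atg4d by -0.61 and Atg4c by at least 1.86-fold.

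Other receptors went both ways. Retreg1, a receptor for autophagy of the endoplasmic reticulum, went from 2646.1 to 6154.7 (2.32-fold higher), and its 2 probe sets were both past 2-fold. Fundc1, a mitochondrial receptor, stood at 0.71. Stbd1, which binds glycogen, went from 2310.4 to 986 (2.32-fold lower), and Calcoco1 stood at -0.74. Tex264, another receptor of the endoplasmic reticulum, had signals of 774.5 and 71.8, at least 2.93-fold lower. Ccpg1, a further receptor of the endoplasmic reticulum, named outside the rule after its values were seen, stood at -0.62, so these 3 did not share a direction.

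Of 13 genes for fusion of autophagosomes with lysosomes, the SNARE gene Ykt6 was 2.38-fold higher (1423.1 and 3416) by its brightest probe set. Its other probe set stood at 0.35. Vps11 stood at 0.73, with 3 probe sets from 0.14 to 1.05. Rab7, the GTPase of late endosomes and lysosomes, was at -0.65, with its other probe set at -0.01, and Vps41 was at -0.38. Epg5 was at least 1.63-fold lower. None of the 15 measured subunits of the v-ATPase, the proton pump that acidifies lysosomes, reached 2-fold by its brightest probe set. These readings went from Atp6v0b (-0.69) and Atp6v1d (-0.61) to Atp6ap2 (0.44) and Atp6v0a1 (0.47), with a median of -0.20. Other probe sets past the filter, which can be dim in 1 pool, did pass 2-fold. They were of Atp6v0a2 (2.80), Atp6v0a1 (1.64), Atp6v1b2 (1.61) and Atp6v1e1 (-1.78).

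Among the other lysosomal proteases, Lgmn, the asparaginyl endopeptidase legumain, went from 530.7 to 3918.6 (2.85, 7.20-fold higher), more than any member. Ctss, a cathepsin of antigen-presenting cells, stood at 0.76. Ctso went from 3141.1 to 1090.2 (2.85-fold lower), with its other probe set at -0.32, and Cpq stood at -0.58. The median of these 11 genes was -0.46, since 8 of them were below 0, and it was -0.17 with each gene read by its least different probe set.

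Other lysosomal hydrolases and their activators lay below 0 in 18 of 23 cases, with a median of -0.46. That median depended on the probe set read, being -0.28 where probe sets were averaged and -0.04 with the least different one. Of them, 3 were at least 2-fold lower and 1 higher. Acp5, the tartrate-resistant acid phosphatase, went from 2561 to 1142.1 (-1.15), and Arsb, arylsulfatase B, from 1709.8 to 785.9 (-1.11). All 3 probe sets of Arsb were lower, the least different by -0.11. Grn, which encodes progranulin, was the exception, at 4611.2 and 11636.9 (1.33), with 3 probe sets that were all past 2-fold. Pla2g15, the lysosomal phospholipase, stood at 0.29. Of 15 genes of lysosomal membrane and sorting, none reached 2-fold by its brightest probe set. Among those whose probe sets had 1 sign, Lmbrd1 (-0.68) and Ctns (-0.64) were lowest and Gnptg (0.44) and Laptm4b (0.78) highest. Gnptab, at -0.77, had probe sets of both signs. Other probe sets passed 2-fold downward for Lmbrd1 (-1.42), Mcoln1 (-1.94) and Mfsd8 (-1.60), the last 2 genes having probe sets of both signs.

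The kinase mTORC1 sits on the lysosome and restrains autophagy when nutrients are plentiful. Of 27 measured genes of this kinase and of nutrient sensing, 2 (7.41%) were at least 2-fold higher and 4 (14.8%) lower. Over all genes, 8.71% were higher and 9.59% lower by that threshold. The median of the 27 was -0.07. Deptor, an inhibitor of mTOR, went from 2822.6 to 798.3 (3.49-fold lower), and its 6 measured probe sets were each lower. Foxo3, a transcription factor held in check by insulin, went from 1131.8 to 313.9 (3.48-fold lower), with its 2 probe sets lower. Sesn3, named outside the rule after its values were seen, went from 1180.4 to 341.9 (-1.74).

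Flcn, folliculin, which lets mTORC1 phosphorylate Tfeb and Tfe3, had signals of 1026.6 and 185.2, at least 3.86-fold lower by that probe set. It is of the _x_at type, which can cross-hybridise, and the other probe set of Flcn stood at -1.28. Ddit4, an inhibitor of mTORC1 that stress hormones induce, went from 195.3 to 981.3, at least 3.65-fold higher. Lamtor1 (0.90) and Rraga (0.68), which anchor mTORC1 to the lysosome, were the highest of those measured on both arrays.

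**Figure D5:**
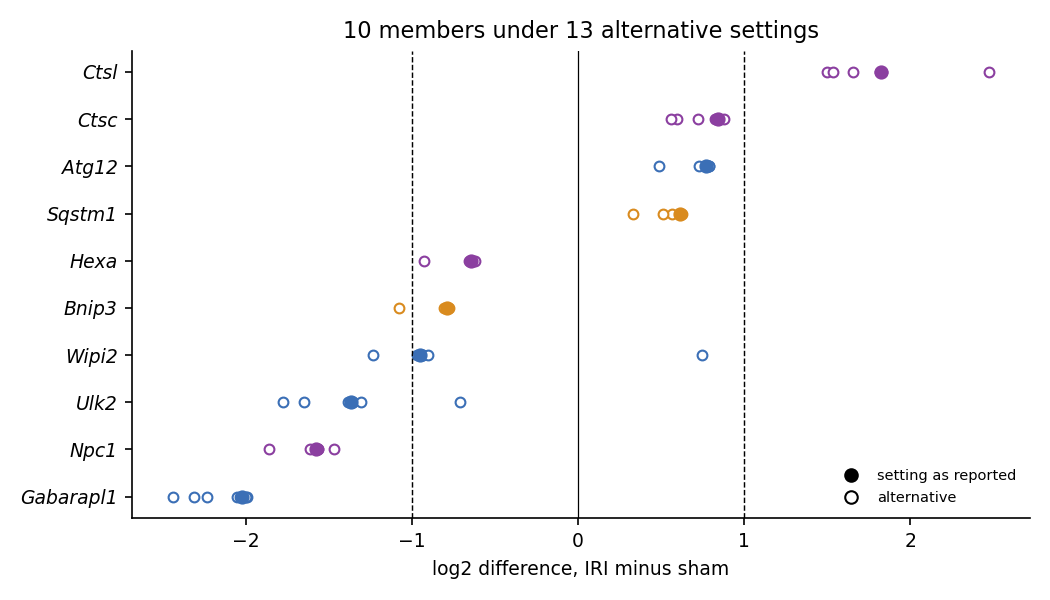
The log2 difference of the 10 members with at least 1.5-fold differences, as reported (filled) and under 13 other settings of scale, filter, pseudocount and probe set (open), with dashed lines at 2-fold. Ctsl, Npc1 and Gabarapl1 stay past 2-fold in all settings drawn, Ulk2 crosses the line in 1, and Wipi2 changes sign in 1.

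The 4 genes past 2-fold were read again under 13 other settings. Ctsl ranged from 1.5 to 2.47, Npc1 from -1.86 to -1.47 and Gabarapl1 from -2.44 to -1.99, all past 2-fold throughout. Ulk2 ranged from -1.78 to -0.71 and was under 2-fold by the least different of its probe sets. All 18 spiked hybridisation controls read higher in the IRI file, and when they set the scale each log2 difference moved by -0.28. Wipi2 and Bnip3 also passed 2-fold on the lower side, and the count went from 3 to 5, with 1 gene on the higher side. Over all genes the split then went from 1143 higher and 1258 lower to 756 and 2016.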

How the data were processed

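Liver RNA of 1 sham pool and 1 IRI pool was measured. Trizol was used for extraction and 6 ug of RNA was labelled with biotin as cRNA, per the labels' protocols. Each of 45101 probe sets has a deposited linear intensity. Leaving out the top and bottom 2%, these average 500.0 in either file, so the authors had scaled them. Of the software, background correction and filters behind them, nothing is said: not given in the sources used here.

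Groups follow the treatment label. Gene names came from the platform annotation, which can be old, updated through Entrez IDs: 34945 probe sets had 1 gene, 932 several and 9160 none listed, the last being unnamed here. Values were taken as log2 of intensity plus 16, which understates differences of dim probe sets. A probe set entered when at least 1 signal reached its array's median, and a gene was read by its probe set with the highest mean. For a signal under the median, the bound sets the brighter signal against the dim array's median, each plus 16. Probe sets ending in _x_at or _s_at can cross-hybridise.

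Precision is limited by the number of arrays, and no test was run: a difference counts as past the threshold at 2-fold. All members are accounted for. In each other list, up to 2 highest and 2 lowest genes were named among those bright in both pools whose probe sets had 1 sign, with a bound for the highest and lowest of those under it on 1 array. Members, lists and rules were chosen with earlier results of these data known. The steps were tested on simulated arrays. Alternatives covered scale, pseudocount (1 and 64), filter, probe set, suffix, reference and threshold. E-boxes were counted by exact match, the TCACGTGA form being added after the windows were seen. Python 3.11.15, pandas 2.3.3 and numpy 2.4.6 were used.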

Additional observations from a re-analysis of the deposited data

How the results depend on the processing

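With 1 array per group, no replicate could be left out to see how a result depended on it. No paired analysis was possible because each group has 1 pool. Under scaling, pseudocount, filter and probe set alternatives, the count of members at least 2-fold higher was 1 in each. The count at least 2-fold lower was 3, except 5 with the hybridisation controls as the reference and 2 with each gene read by its least changed probe set. At 1.5-fold there were 4 higher and 6 lower, and at 3-fold 1 lower and 1 higher. The median of the 3 receptors went from -0.56 to 0.29 in that last reading, through Nbr1. The medians of all members (-0.39 to -0.03), machinery (-0.39 to -0.03) and lysosomal genes (-0.32 to -0.01) stayed below 0, the lowest being with the hybridisation controls. Lamp1 and Ctsb changed sign by quantile normalization, and 6 members, among them Becn1 and Atg13, with those controls.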
